A study of Oryza sativa with 27 samples.

Results

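The 200 rice probe sets described here share a lasting drop in transcript level after pollination, in the base of the ovary as well as in its upper portion. They were chosen from 29331 probe sets whose mean over all arrays exceeded the median of all values (0.26). For each probe set the group means of log2(value + 0.13) were taken, and the unpollinated mean minus the mean at each of 1, 2, 3 and 4 days after pollination (DAP) was computed in each part of the ovary. The smallest of these 8 differences was the score, and the 200 highest scores are the members. Scores ran from 4.44 down to 0.831, with a median of 1.1, and 20 members scored above 2. Because the differences from the unpollinated stage chose the members, those differences are given below as a description, with no test.

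Transcripts were measured with an Affymetrix rice array in ovaries of rice grown in paddy fields. The ovary with its embryo sac was cut into a smaller bottom part, which per the labels holds the embryo, and a larger top part, which per the labels is mainly endosperm. The 10 groups were these bottom and top parts before pollination, the reference of the study, and at 1, 2, 3 and 4 DAP. There were 27 arrays: 2 for the top part on each of the first 3 days, and 3 for every other group. No cultivar is named in the labels, no mutant or treatment other than pollination is given, and whole parts of the ovary rather than single tissues were sampled. The labels name biological replicates without saying that these came from separate plants, so p-values measure only the spread between these samples.

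In a rice floret the ovary consists of a carpel wall around an ovule, and the lodicules and stamens are attached just below it. Pollination and fertilisation start embryo and endosperm growth, while tissues that served flower opening and pollen reception wither or change their task. Genes of floral organ identity, of defence in the open flower and of wall loosening are known to be active in flowers at that time.

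Values are intensities relative to the 75th percentile of the same array, so a level of 1 equals that percentile. Arrays of a group correlated across probe sets with r between 0.925 and 0.986. Replicate 3 of the bottom part lay farthest from its group mean at 2, 3 and 4 DAP. Of 3 embryo markers, OSH1, a homeobox gene of meristems and embryos, lay between 16.7 and 23.6 on the bottom arrays and between 0.252 and 0.399 on the top arrays before pollination. Its level in the bottom part was thus high already before pollination. OSH1 is no member, and its bottom mean of 20.9 before pollination was followed by 20, 9.65, 4.94 and 3.76 at 1, 2, 3 and 4 DAP. Before pollination ROC1, an epidermal homeobox gene, had the higher mean in the top part (5.17, against 2.95 in the bottom part). OsVP1, a seed maturation factor, was then low in both parts (0.143 and 0.192). The summed level of 4 anther and pollen markers before pollination was between 0.528 and 1.19 in the top part and between 0.578 and 0.809 in the bottom part. Each of those 4 markers had a mean below that median over all arrays, too low for the test. Of 4 endosperm markers, waxy was low in the top part to 2 DAP, with means of 0.183, 0.0914 and 0.102. Its top means were 5.22 at 3 DAP and 43.3 at 4 DAP. From before pollination to 4 DAP, top means went from 4.48 to 3.61 (GLB1), 0.728 to 0.735 (GLUA2) and 0.104 to 0.668 (GLUA1). In whole parts like these, fewer cells of a type and less RNA per cell cannot be told apart.

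The typical member stood above the 75th percentile of the array before pollination and below it afterwards. In the bottom part the median level of the 200 members was 3.37 in unpollinated ovaries and 0.743, 0.566, 0.706 and 0.597 at 1, 2, 3 and 4 DAP. The top part had a median level of 2.63 before pollination and 0.508, 0.418, 0.486 and 0.364 on the same days. The median of all tested probe sets stayed close to 1 throughout. As median differences on the log2 scale, members were lower by 1.53 at 1 DAP and 1.9 at 4 DAP in the bottom part, and by 1.5 and 1.85 in the top part. The rule asked for a lower level on every day, the first included, so an early drop is part of the choice. A median of 80.5% of a member's largest log2 difference was present at 1 DAP in each part. Under 50% of it had appeared by then for 17 members in the bottom part and 15 in the top part.

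**Figure D1:**
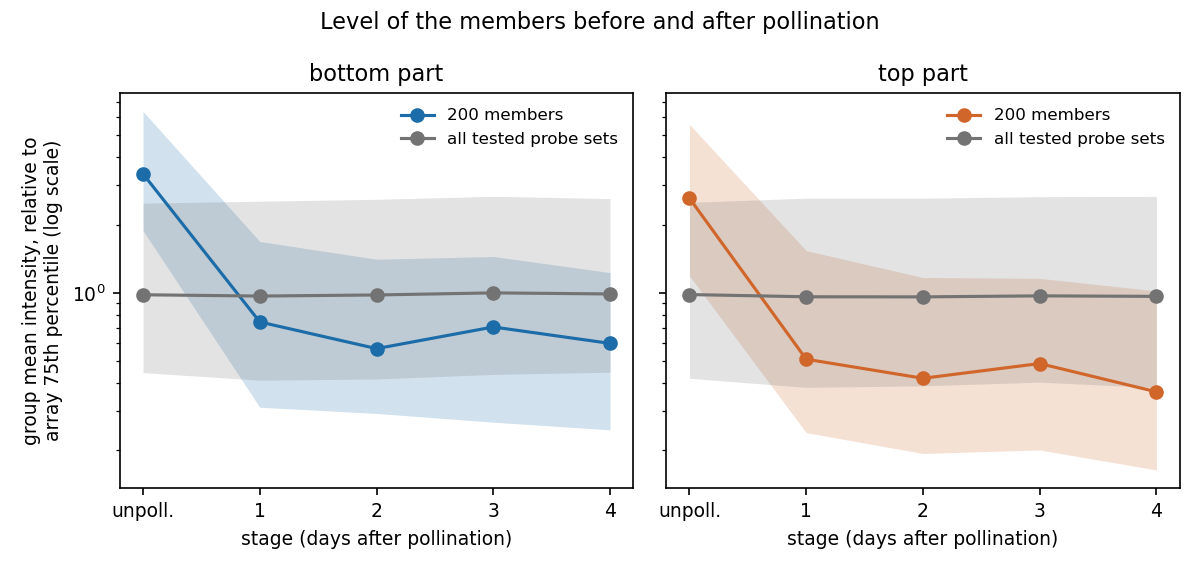
Median level of the 200 members (colour) and of all tested probe sets (grey) at each stage in the bottom and top parts, as group mean intensity relative to the array's 75th percentile on a log axis; bands run from the 25th to the 75th percentile of probe sets. The members' median goes from 3.37 to 0.597 in the bottom part and from 2.63 to 0.364 in the top part, while the median of all probe sets stays near 1.

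In the bottom part all unpollinated arrays lay above all 12 pollinated arrays for 168 members (5.37% of all tested), and in the top part above all 9 pollinated arrays for 182 members (9.69%). The rule used these same arrays, so nothing is read from the counts. The groups overlapped for the remaining members of each part. By 4 DAP 53 members had a mean at or below the median of all values in both parts, against none before pollination.

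The members with the highest scores carry no informative gene name, and are given here although outside the rule for naming. LOC4342616 had the highest score. Its unpollinated levels were 6.57, 8.6 and 5.94 in the bottom part and 15.5, 11.8 and 15.1 in the top part, against 0.113, 0.119 and 0.134 and 0.11, 0.127 and 0.148 at 4 DAP. No unpollinated array came near any pollinated one, of which the highest was 0.667. LOC4350216, the next in order, stood at 73.5, 34.0 and 50.2 on the unpollinated bottom arrays and at 0.177, 0.158 and 0.139 at 1 DAP, a drop of 175-fold on the log2(value + 0.13) scale. It started lower in the top part, at 7.02, 4.71 and 3.37, and read 0.125 and 0.155 at 1 DAP. The groups were far apart in both parts. Of the 200 members 145 matched a gene, 134 genes in all, and only 30 of these genes had an informative name.

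Among members tied to defence, the chitinase OsChia1d (LOC4338720) had the largest range. Chitinases cut chitin, a polymer of fungal walls. OsChia1d read 132, 84.7 and 128 on the unpollinated bottom arrays, 0.911, 1.25 and 1.08 at 1 DAP and 0.171, 0.207 and 0.226 at 4 DAP, which made it 341-fold lower at 4 DAP on the log2(value + 0.13) scale. The bottom groups did not overlap, and the level went on dropping after the first day. Its unpollinated top values were 8.24, 7.29 and 0.365, and its pollinated top values ran from 0.102 to 0.254. The third unpollinated array of the top part was thus close to the pollinated arrays, and the top mean rests on the other two.

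FOR1 (LOC4343645), a leucine-rich repeat protein of the polygalacturonase inhibitor type that regulates floral organ number in rice, was among the brightest members in both parts. It read 61.4, 38.9 and 38.9 on the unpollinated bottom arrays, 7.2, 7.81 and 7.86 at 1 DAP, and 3.01, 4.65 and 4.04 at 4 DAP. Top values were 48.9, 38.6 and 48.3 before pollination, 18.4 and 22.6 at 1 DAP, and 5.61, 3.42 and 3.19 at 4 DAP. Groups before and after pollination did not overlap in either part, and the top part was slower: at 1 DAP FOR1 was 5.86-fold lower in the bottom part and 2.2-fold lower in the top part. That difference between the parts on the first day was not itself tested.

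OsNH1 (LOC4327315), the rice counterpart of the salicylic acid signalling protein NPR1, had higher values in the top than the bottom part before pollination, a difference that missed the threshold (0.98 on the log2 scale, SE 0.417, limma adjusted p = 0.123). Its unpollinated values were 6.48, 5.97 and 5.16 in the top part and 2.82, 2.4 and 3.55 in the bottom part. At 4 DAP they were 0.415, 0.503 and 0.473 in the top part and 0.623, 0.57 and 1.13 in the bottom part. In the bottom part at 3 DAP, replicate 3 of OsNH1 was at 2.61, inside the unpollinated range, while the other arrays read 0.525 and 1.02. Pi21 (LOC4335725), a proline-rich protein whose loss gives resistance to rice blast, went from a mean of 1.11 ± 0.459 (SD, n = 3) to 0.175 ± 0.0246 at 4 DAP in the bottom part. At 4 DAP 1 top array read 0.783, close to the lowest unpollinated value of 0.797, and the others 0.0861 and 0.0873. A further probe set of Pi21 changed less and was no member, with a score of 0.44. Its mean went from 1.03 to 0.629 in the bottom part and from 1.38 to 0.992 in the top part at 4 DAP. OsJAMyb (LOC4351131), a MYB factor induced by jasmonate, lay at the lower edge of the members, and its bottom groups overlapped, with 1.42 on an unpollinated array and 3.12 on replicate 3 at 3 DAP.

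The list of chitinases and pathogenesis-related genes was formed from gene name patterns and held 28 tested genes. Its 4 members were OsChia1d, FOR1, OsNH1 and Pi21, of which only OsChia1d is a chitinase. The counts below are therefore not those of a single gene family. In counts of called genes, here and for the later lists, each gene stands for its tested probe set with the highest mean. The shares of all tested are over all probe sets, with or without a gene name, so the units differ. From 1 to 4 DAP, a contrast that did not choose the members, 5 of the 28 were lower and none higher in the bottom part, and 5 were lower and 1 higher in the top part (limma, adjusted p under 0.05). Of all tested probe sets 4.08% were lower and 4.92% higher in that contrast in the bottom part, and 6.47% and 7.48% in the top part. Before pollination 6 were lower and 1 was higher in the top than in the bottom part, against 8.13% and 6.84% of all tested.

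The floral organ identity genes OsMADS2 and OsMADS16 were the only members among 23 tested MADS-box genes. OsMADS16 (LOC4342047, SUPERWOMAN1) is the APETALA3-type gene that specifies lodicules and stamens, and OsMADS2 (LOC4325001) is a PISTILLATA-type gene needed for lodicules. OsMADS16 read 56.9, 19.7 and 30.6 on the unpollinated bottom arrays, 13.5, 15.8 and 14.9 at 1 DAP, 8.7, 7.9 and 4.89 at 2 DAP, 3.67, 4.74 and 3.53 at 3 DAP. By 4 DAP its values were 3.89, 4.54 and 3.16. The bottom groups before and after pollination did not overlap, and the level went down in steps over the first 3 days. OsMADS16 was far lower in the top part at every stage, with 2.19, 2.09 and 1.37 before pollination and 0.198, 0.26 and 0.375 at 4 DAP, again without overlap.

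OsMADS2 read 45.2, 22.2 and 33.6 on the unpollinated bottom arrays, 11, 13.7 and 13.9 at 1 DAP, and 7.94, 5.97 and 4.33 at 4 DAP. It read 12.1, 13.4 and 10.2 in the top part before pollination, 1.54 and 1.25 at 1 DAP, and 0.977, 1.17 and 1.29 at 4 DAP. Neither part showed overlap, and the top arrays at 1 DAP were near those at 4 DAP. The change from 1 to 4 DAP was not called as different between the parts (0.84 on the log2 scale, SE 0.451, limma interaction adjusted p = 0.766). The other PISTILLATA-type gene, OsMADS4, was no member: its mean was 5.34 ± 2.74 (SD, n = 3) before pollination and 3.34 ± 1.09 at 4 DAP in the bottom part, and 4.21 ± 0.912 and 3.58 ± 0.769 in the top part. Together the 3 lodicule and stamen markers summed to between 45.5 and 111 on the unpollinated bottom arrays and between 9.65 and 15.4 at 4 DAP. Their sum was between 14.9 and 20.6 in the unpollinated top part. Since 2 of the 3 are members, the part of lodicule or stamen tissue in the other members' levels was not tested.

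**Figure D2:**
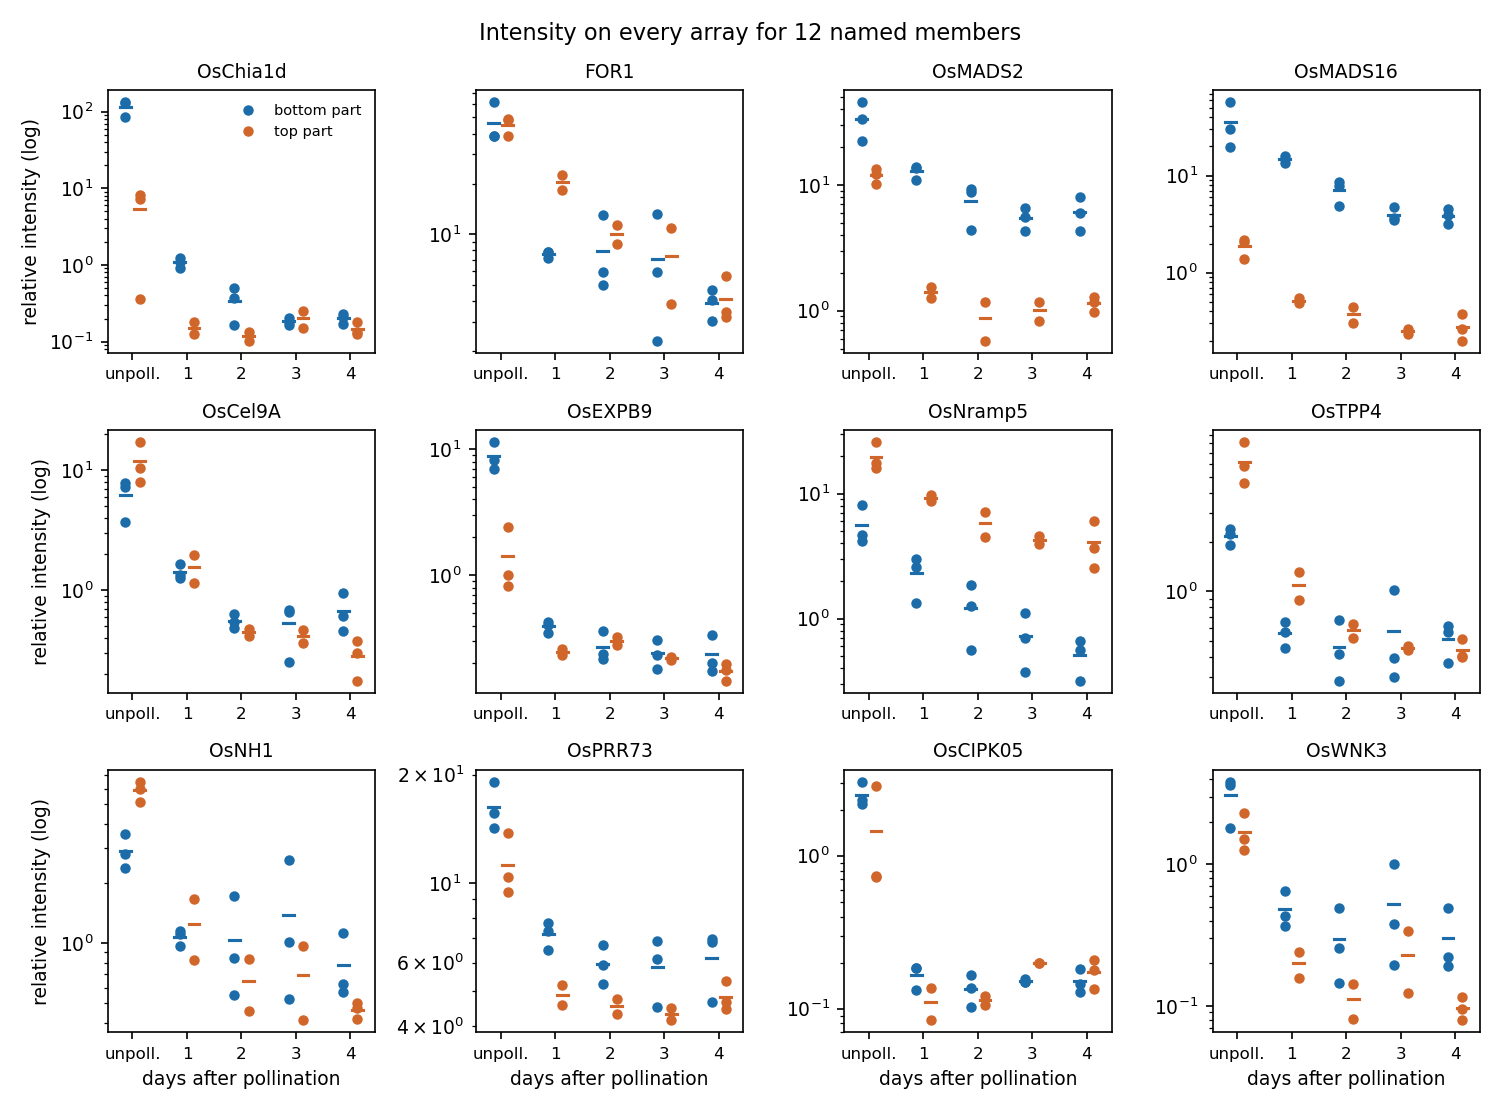
Intensity of 12 named members on every array, relative to the array's 75th percentile on log axes, by stage; blue points are the bottom part, orange points the top part, and short lines are group means. OsMADS2 and OsMADS16 stand higher in the bottom part and OsNramp5 in the top part at every stage. OsChia1d stands higher in the bottom part before pollination, with 1 unpollinated top array at 0.365, and its difference between the parts is near 0 at the last stage.

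Wall and sugar genes among the members were lower in both parts from 1 DAP on, as the rule required of every member. The lists they came from had no lower median at 4 DAP. There the median log2 difference from unpollinated was 0.76 (expansins), 0.39 (other wall enzymes) and 0.75 (sugar genes) in the top part. In the bottom part these medians were 0.13, 0.02 and 0.19. OsEXPB9 (LOC4349301) and OsEXPB8 (LOC4331298) are beta-expansins, proteins that loosen grass cell walls. OsEXPB9 read 11.4, 8.3 and 6.99 on the unpollinated bottom arrays, against 0.352, 0.406 and 0.428 at 1 DAP, a 16.9-fold lower level on the log2(value + 0.13) scale. Its top values were 0.819, 2.43 and 1.01 before pollination and 0.234 and 0.262 at 1 DAP. Levels before and after pollination did not overlap in either part. OsEXPB8 was similar in the bottom part, at 8.06, 2.96 and 4.48 before pollination and 0.245, 0.234 and 0.199 at 1 DAP, but started from only 0.9, 0.758 and 1.3 in the top part. Of 19 tested expansins these were the only members. Before pollination 4 of the 19 were lower in the top than in the bottom part (limma, adjusted p under 0.05), against 8.13% of all tested.

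OsCel9A (LOC4324643), an endoglucanase that acts on wall glucans, was the only member among 42 other wall enzymes. It read 7.78, 7.25 and 3.67 on the unpollinated bottom arrays, 1.27, 1.34 and 1.66 at 1 DAP, and 0.942, 0.606 and 0.454 at 4 DAP. The top part read 10.5, 17.2 and 7.94 before pollination, 1.97 and 1.14 at 1 DAP, and 0.379, 0.297 and 0.175 at 4 DAP. Its groups before and after pollination did not overlap. OsTPP4 (LOC4330753), a trehalose-6-phosphate phosphatase, was the only member among 29 genes of sugar transport and sugar phosphates. OsTPP4 read 2.23, 2.4 and 1.93 in the bottom part and 4.56, 8.13 and 5.84 in the top part before pollination, against 0.566, 0.614 and 0.364 and 0.402, 0.512 and 0.396 at 4 DAP. Its top arrays all lay above its bottom arrays at the start, and the parts overlapped at the end.

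Nitrogen and mineral transporters supplied 5 members of 65 tested genes. OsNramp5 (LOC4342859), the transporter known for manganese and cadmium uptake in rice roots, had a higher level in the top part at every stage. It read 17.7, 15.9 and 25.8 on the unpollinated top arrays, 9.73 and 8.79 at 1 DAP, and 3.67, 2.54 and 6.01 at 4 DAP. In the bottom part the values were 4.15, 8.1 and 4.63 before pollination, 1.32, 2.6 and 2.99 at 1 DAP, and 0.659, 0.556 and 0.318 at 4 DAP. No array after pollination reached the unpollinated range of its own part. OsHAK9 (LOC4344288), of the potassium transporter family, went from a mean of 5.47 ± 0.516 (SD, n = 3) to 2.05 ± 0.759 in the bottom part and from 4.75 ± 2.37 to 1.03 ± 0.285 in the top part at 4 DAP.

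The other 3 transporters were named after their values were seen. OsTPC1 (LOC4325272), a calcium-permeable channel, went from 3.18 ± 0.514 to 1.09 ± 0.14 in the bottom part and from 3.63 ± 0.415 to 1.12 ± 0.0887 in the top part at 4 DAP. OsHMA2 (LOC4341965), a zinc-transporting ATPase, had top values of 0.385, 0.368 and 1.25 before pollination and 0.189, 0.13 and 0.107 at 4 DAP, so that its top mean before pollination rests largely on 1 array. OsZIP5 (LOC4339082), a zinc transporter, was a weak member with means of 0.856 ± 0.0665 and 0.402 ± 0.122 in the bottom part before pollination and at 4 DAP. Across the whole list of 65, 12 genes were lower and 4 higher at 4 than at 1 DAP in the bottom part, and 6 were lower and 5 higher in the top part. The shares over all tested were 4.08% lower and 4.92% higher, and 6.47% and 7.48%.

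Both aquaporin members, OsPIP2;1 and OsPIP2;2, are water channels of the plasma membrane, and there were 20 aquaporins tested. The member probe set of OsPIP2;1 (LOC4343122) read 5.42, 20 and 17.8 on the unpollinated bottom arrays, 1.59, 1.48 and 1.44 at 1 DAP, and 0.535, 0.994 and 1.04 at 4 DAP. The same probe set read 0.362, 0.125 and 0.899 in the top part before pollination and 0.0801, 0.101 and 0.0719 at 4 DAP. The bottom groups did not overlap, and the top levels were low throughout. Both other probe sets of OsPIP2;1 showed no such drop: their bottom means were 41.1 and 37.3 before pollination and 40.4 and 34.9 at 4 DAP, and their top means 27 and 20.6 before and 38.6 and 31.9 at 4 DAP. The lower level is thus a measurement of 1 probe set and not of all transcripts of the gene. OsPIP2;2 (LOC4330049) read 34.7, 13.1 and 21.6 before pollination in the bottom part, 6.21, 10.1 and 22.2 at 1 DAP and 8.04, 7.55 and 3.63 at 4 DAP, so that at 1 DAP replicate 3 overlapped the unpollinated arrays.

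**Figure D3:**
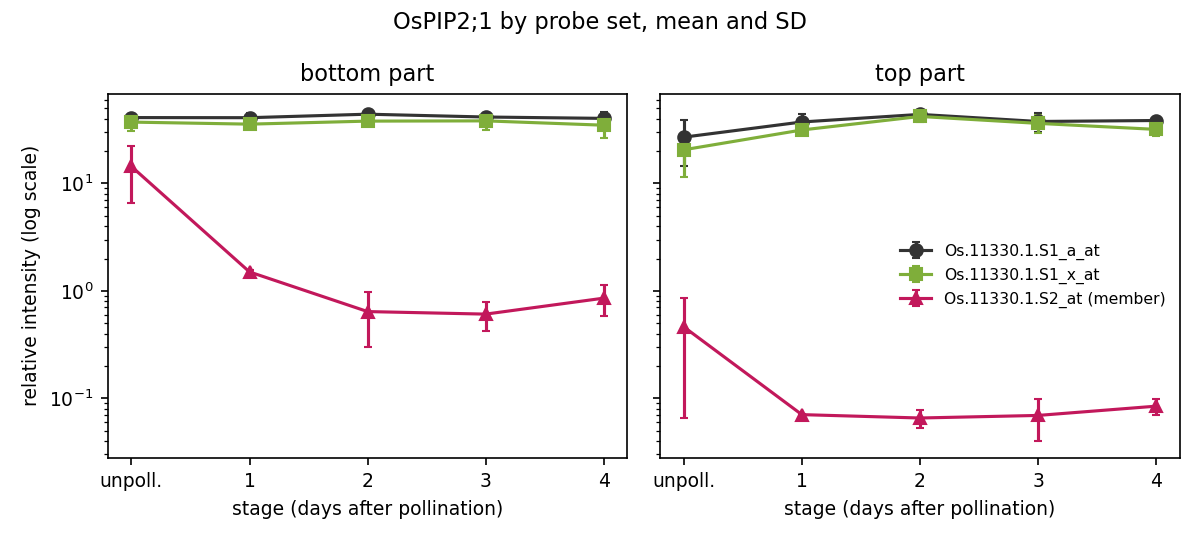
The 3 tested probe sets of OsPIP2;1 by stage in the bottom and top parts, as mean intensity relative to the array's 75th percentile on a log axis; bars are the SD over 3 arrays (2 in the top part at 1, 2 and 3 DAP). The member probe set goes from 14.4 to 0.855 in the bottom part, while the others stay between 34.9 and 41.1 at these stages.

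Kinases and receptors gave 4 member genes. OsCIPK05 (LOC4327093) and OsCIPK10 (LOC4332786) are kinases that work with calcineurin B-like calcium sensors. OsCIPK05 read 2.18, 3.04 and 2.31 on the unpollinated bottom arrays, against 0.132, 0.183 and 0.184 at 1 DAP, and its top values were 0.729, 0.74 and 2.86 before pollination and 0.0837 and 0.137 at 1 DAP. It stayed at that low level to 4 DAP in both parts, with no overlap with the unpollinated arrays. OsCIPK10 was a member through 3 probe sets, whose bottom means went from 2.25, 1.99 and 0.746 to 0.699, 0.651 and 0.313 at 4 DAP. A further probe set of OsCIPK10 went from 1.3 to 0.317 in the bottom part and missed membership with a score of 0.71.

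OsWNK3 (LOC4342585), a kinase of the WNK family, read 3.61, 1.79 and 3.81 on the unpollinated bottom arrays, against 0.192, 0.221 and 0.491 at 4 DAP. Its top values were 1.27, 1.51 and 2.3 before pollination and 0.0791, 0.0951 and 0.115 at 4 DAP, without overlap in either part. Its other tested probe set was low and flat, at 0.324 and 0.325 in the bottom part before pollination and at 4 DAP. OsIRL4 (LOC4346010), a leucine-rich repeat protein named after its values were seen, went from 5.6 ± 1.48 to 2.79 ± 0.216 in the bottom part. Of the 90 kinase and receptor genes tested, 17 were lower and 1 was higher in the unpollinated top than bottom part, against 8.13% and 6.84% of all tested. From 1 to 4 DAP 4 were lower and 6 higher in the bottom part (4.08% and 4.92% of all tested), and 4 were lower and 7 higher in the top part (6.47% and 7.48%).

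The list of other transcription factors, separate from the MADS-box list and from that of homeobox and YABBY genes, gave 8 member genes of 187 tested. OsPRR73 (LOC4332464), a pseudo-response regulator of the circadian clock, was lower from the first day on. It read 19.1, 14.2 and 15.6 on the unpollinated bottom arrays, 7.36, 7.75 and 6.52 at 1 DAP and 6.96, 6.86 and 4.67 at 4 DAP. Top arrays read 9.43, 13.8 and 10.4, then 5.2 and 4.56, and at 4 DAP 4.46, 5.33 and 4.67. Neither part showed overlap, and the drop was about the same size on every day. The hour of collection is not given in the labels, so its part in the level of a clock gene was not tested.

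OsMYBS2, a MYB factor that binds a sugar-response element of alpha-amylase promoters, was a member through 2 probe sets. The higher-scoring of them read 0.727, 2.96 and 3.01 on the unpollinated bottom arrays, against 0.207, 0.194 and 0.305 at 4 DAP, but 1.06 on an array at 1 DAP and 1.27 on replicate 3 at 3 DAP, so that the bottom groups overlapped. Top values were 2.83, 1.57 and 5 before pollination and 0.088, 0.0935 and 0.117 at 4 DAP, with no overlap. The auxin response factor ARF17 (LOC4341841) went from 13.7 ± 4.13 to 3.54 ± 0.77 (SD, n = 3) in the bottom part and from 10.9 ± 1.18 to 3.31 ± 0.496 in the top part at 4 DAP. OsDof4 (LOC4330589), a Dof zinc finger factor, went from 15.4 ± 3.7 to 4.77 ± 1.43 and from 9.28 ± 3.65 to 2.21 ± 0.143 in the same comparison.

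OsMIF4 (LOC4345672), a mini zinc finger protein, depended on single arrays: its unpollinated values were 0.633, 2.31 and 0.711 in the bottom part and 0.333, 0.364 and 2.61 in the top part. Its highest pollinated value was 0.377 in the bottom part, and the groups of each part did not overlap. OsC3H35 (LOC4338037), a CCCH zinc finger protein, went from 3.35 ± 1.11 to 1.44 ± 0.709 in the bottom part and from 5.01 ± 0.655 to 1.8 ± 0.451 in the top part at 4 DAP. The heat shock factor OsHsf-19 (LOC4344063) read 5.19, 4.51 and 2.92 on the unpollinated top arrays, 1.49 and 1.58 at 1 DAP and 0.532, 0.392 and 0.323 at 4 DAP. The top groups were separate, while in the bottom part replicate 3 at 3 DAP read 2.56, above all 3 unpollinated arrays (2.34, 2.23 and 2.11). OsPSAG (LOC4337812), a subunit of photosystem I, went from 2.81 ± 1.2 to 1.03 ± 0.102 in the bottom part and from 2.78 ± 1.06 to 1.28 ± 0.518 in the top part. Of 8 photosynthesis genes tested it was the only member, and 5 of the 8 were higher and none lower at 4 than at 1 DAP in the bottom part, with 7 higher and none lower in the top part, against 4.92% and 7.48% higher of all tested.

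No member came from the lists of homeobox and YABBY genes (33 tested), gibberellin (15), cytokinin (24), ethylene (17), abscisic acid (68), brassinosteroid (8), peroxidases and germins (14), cytochrome P450 (19) or histones, cyclins and replication (67). The jasmonate list had OsJAMyb as its member among 30 genes, and the heat shock list had OsHsf-19 among 44. Most genes on the array have no informative name, so these lists are shorter than the families they stand for. With 200 members among 29331 tested probe sets, lists this short would mostly hold none. Nothing is read from the number of members in any list.

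Among pollinated stages the members kept moving down more often than up. Between 1 and 4 DAP, 21 members were lower and 3 higher in the bottom part (limma, adjusted p under 0.05), where 4.08% of all tested probe sets were lower and 4.92% higher. In the top part 30 members were lower and 3 higher, against 6.47% and 7.48% of all tested. The rule did not use this contrast, although arrays of these stages entered the choice of members. The median member difference from 1 to 4 DAP was -0.27 on the log2 scale in the bottom part and -0.32 in the top part, beside 0.05 and -0.01 over all tested probe sets. The change from 1 to 4 DAP differed between the parts for 3 members, higher in the top part for 2 (0.338% of all tested) and lower for 1 (0.286%). With 1 array left out at a time, the bottom count of 24 went down to 15 without replicate 2 or 3 at 1 DAP, and the top count of 33 to 15 and 17 without replicate 1 or 2 at 1 DAP.

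OsMADS16 fell by 1.91 (SE 0.291, limma adjusted p = 0.000143) between 1 and 4 DAP in the bottom part on the log2 scale, and all 3 late arrays lay below all 3 early ones. OsNramp5 fell by 1.89 (SE 0.408, adjusted p = 0.00368, limma) in the bottom part, also without overlap. OsMADS2 fell by 1.1 (SE 0.301, limma adjusted p = 0.0215) there, with every late array below every early one; the call was lost without replicate 2 or 3 at 4 DAP (adjusted p = 0.0569 and 0.117) and without replicate 2 or 3 at 1 DAP (0.0775 and 0.0838). In the top part, FOR1 fell by 2.33 (SE 0.515, limma adjusted p = 0.00328) and OsCel9A by 2.01 (SE 0.372, adjusted p = 0.000628), each without overlap. OsHsf-19 fell by 1.63 in the top part (SE 0.412, limma adjusted p = 0.00927), a call lost without either array at 1 DAP (adjusted p = 0.0712 and 0.0776).

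In both parts 8 members were lower at 4 than at 1 DAP, against 2.44% of all tested probe sets. Among them LOC4346301, chosen after its values were seen and without an informative name, read 1.16, 1.11 and 1.61 at 1 DAP and 0.35, 0.305 and 0.283 at 4 DAP in the bottom part. In the top part it read 6.43 and 5.14, then 0.955, 0.856 and 0.305. The late arrays lay below the early ones in both parts. LOC9269366 went the other way in both parts: it read 0.232, 0.25 and 0.237 at 1 DAP and 0.839, 0.962 and 1.16 at 4 DAP in the bottom part, and 0.285 and 0.298, then 0.924, 0.543 and 0.592, in the top part. Its top call was lost without replicate 1 at 4 DAP or either array at 1 DAP (limma adjusted p up to 0.0996). Its level at 4 DAP was above that at 1 DAP, with 2.08 the lowest of its unpollinated arrays. Both other tested probe sets of that gene had a score below 0.

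**Figure D4:**
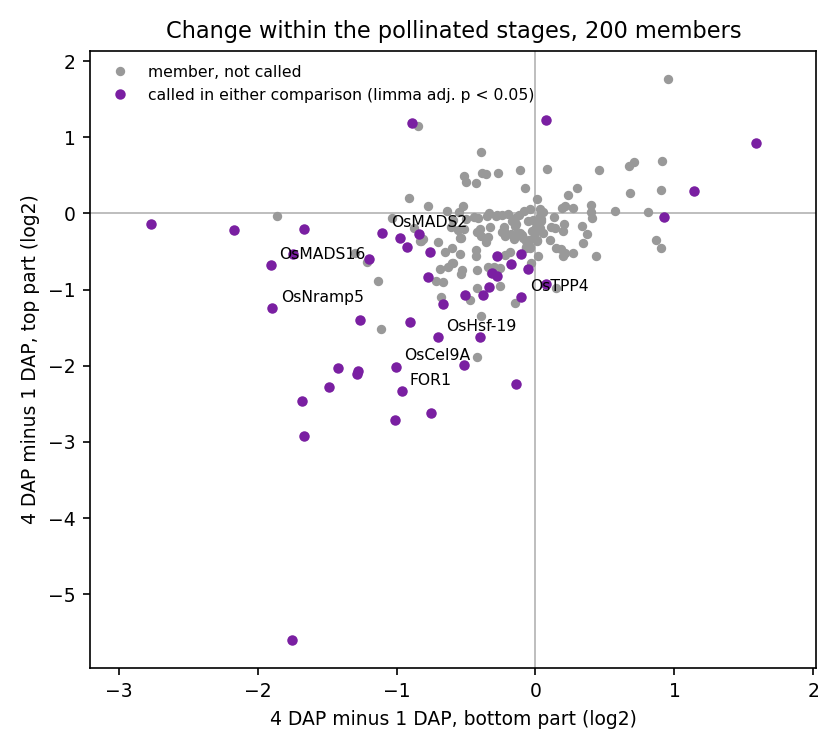
Difference between 4 and 1 DAP on the log2 scale in the bottom part (x axis) and the top part (y axis) for the 200 members; purple points passed limma's adjusted p threshold in at least 1 of the parts. More points lie below 0 than above it on each axis, with 54 members above 0 in the bottom part and 42 in the top part.

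Counts of members that differed between the parts were highest before pollination, as were the counts over all tested probe sets. In unpollinated ovaries 49 members were lower and 21 higher in the top than in the bottom part (limma, adjusted p under 0.05), against 8.13% and 6.84% of all tested probe sets. At 1 DAP 18 were lower and 4 higher (2.74% and 1.32% of all tested), and at 2 DAP 4 and 2 (1.12% and 0.368%). At 3 DAP 9 were lower and 1 higher (1.57% and 3.79%), and at 4 DAP 10 and 1 (1.29% and 1.28%). The rule did not compare the parts, although it did use arrays of both. At 4 DAP 79 members had a top mean and 54 a bottom mean at or below the median of all values, and the part of low levels in these counts was not tested.

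Before pollination OsChia1d was lower in the top part by 5.17 on the log2 scale (SE 0.625, limma adjusted p = 5.41e-06), and all 3 top arrays lay below all 3 bottom arrays. OsEXPB9 was lower there by 2.66 (SE 0.265, limma adjusted p = 4.49e-07) and OsEXPB8 by 2.16 (SE 0.29, adjusted p = 2.1e-05), each without overlap. OsCIPK05 was lower by 1.00 (SE 0.295, limma adjusted p = 0.0254), but 1 top array, at 2.86, lay within the bottom range. That call was lost with only the groups compared and without any 1 of 4 arrays (adjusted p up to 0.247). OsTPP4 was higher in the top part by 1.41 (SE 0.295, limma adjusted p = 0.00238), with all top arrays above all bottom arrays. None of these 5 passed the test between the parts at any stage after pollination. The top part had only 2 arrays on each of the first 3 days, so a missed call does not show equal levels. At 1 DAP all bottom arrays of OsChia1d still lay above all its top arrays. Whether the difference between the parts changed from before to after pollination was not tested, and none of the 5 was called for a change in it between 1 and 4 DAP (limma interaction, adjusted p from 0.587 to 0.999).

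Of the 49 members that were lower in the top part before pollination, 14 (28.6%) were called so again at 1 DAP and 7 (14.3%) at 4 DAP. Among all tested probe sets lower in the top part before pollination, 24.0% and 7.76% were. At 4 DAP 44 of the 49 (89.8%) still had the same sign, against 73.5% of those probe sets. Of the 21 members higher in the top part before pollination, 8 (38.1%) had the same sign at 4 DAP, against 75.3% over all tested, 1 was called higher again and 1 was called lower. Whether these shares differ from those over all tested was not tested. On all 4 days 3 of the 49 were called lower (6.12%, against 3.65% over all tested). These are OsMADS2, OsMADS16 and LOC4348234, the last named after its values were seen. With only the groups compared, OsMADS2 (adjusted p = 0.105, limma) and LOC4348234 (0.423) lost the call at 3 DAP, and LOC4348234 that at 4 DAP (0.0827). OsMADS16 was lower in the top part by 4.05 before pollination (SE 0.291, limma adjusted p = 5.69e-09) and by 3.3 at 4 DAP (SE 0.291, limma adjusted p = 1.19e-06). For OsMADS2 the same differences were 1.44 (SE 0.301, limma adjusted p = 0.00238) and 2.25 (SE 0.301, adjusted p = 0.000217). OsNramp5 was the 1 member of the 21 called higher in the top part on all 4 days, with 1.82 before pollination (SE 0.408, limma adjusted p = 0.00421) and 2.67 at 4 DAP (SE 0.408, limma adjusted p = 0.000798). Its calls at 1, 2 and 3 DAP were each lost under some alternatives, with limma adjusted p up to 0.157, 0.251 and 0.207; those before pollination and at 4 DAP were not. For both MADS-box genes and OsNramp5, no top array overlapped a bottom array at any stage.

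**Figure D5:**
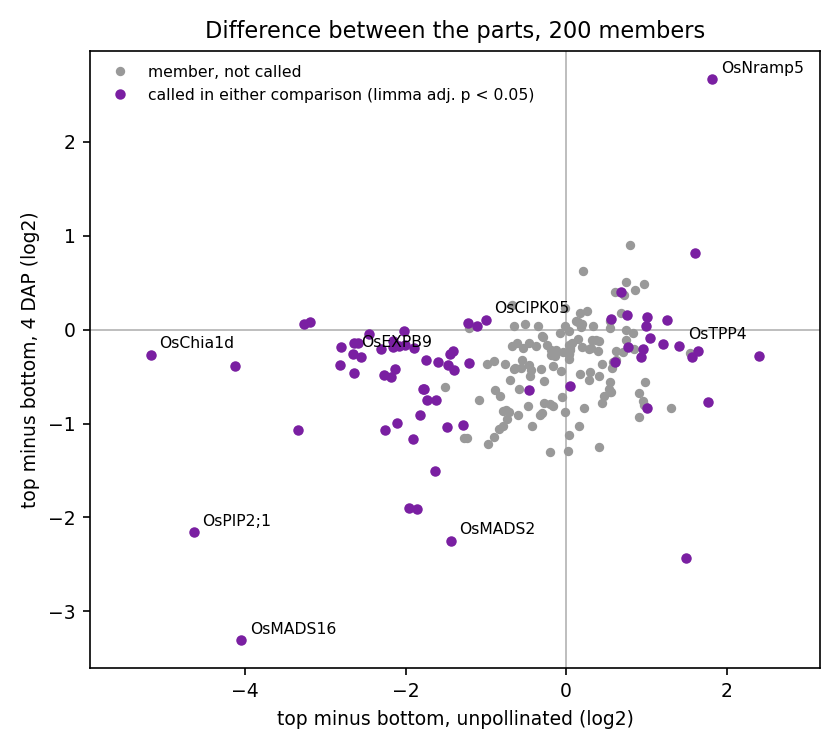
Top minus bottom difference on the log2 scale before pollination (x axis) and at 4 DAP (y axis) for the 200 members; purple points passed limma's adjusted p threshold at 1 or both of these stages. OsChia1d lies at -5.17 on the x axis and near 0 on the y axis, while OsMADS16 at -4.05 and -3.3 and OsNramp5 at 1.82 and 2.67 keep their difference.

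Further probe sets of member genes were scored by the same rule and are no members because their scores were lower, so that their smaller differences follow from the choice. For 21 member genes 25 further probe sets were tested, and 18 of them (72.0%) had a score above 0, meaning lower on every day in both parts, against 20.9% of all tested probe sets; this is a description. Their median score was 0.31, beside -0.31 over all tested. The second probe set of OsPRR73 went from 3.36 to 1.59 in the bottom part and from 2.78 to 1.6 in the top part at 4 DAP. That of OsHsf-19 went from 1.18 to 0.475 and from 2.41 to 0.389. Shared targets can make probe sets of a gene alike, and OsPIP2;1, OsWNK3 and LOC9269366 are the genes named above whose other probe sets had a score below 0.

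Where the list of members ends is arbitrary. OsEXPB8, OsJAMyb and a probe set with no gene had the lowest scores inside, 0.834, 0.832 and 0.831. Just outside were another probe set with no gene, LOC4328165 and LOC4338963, with 0.83, 0.828 and 0.828. Members' unpollinated arrays also spread more than usual: they lay over 4-fold apart for 17 members in the bottom part (2.27% of all tested) and for 24 in the top part (4.7% of all tested). When the rule was applied again without each array in turn, 99 of the 200 members were chosen every time, among them OsChia1d, OsWNK3, OsCel9A, OsEXPB9, OsMADS2 and OsPRR73. Of 33 member probe sets with an informative name, only 15 were chosen every time. OsMADS16, OsNH1 and OsPIP2;1 were each chosen 26 times of 27, OsEXPB8 18 times and OsJAMyb 15 times. The 133 member genes that could be placed in gene order included 0 neighbouring pairs.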

How the data were processed

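Total RNA of rice ovary parts was hybridised to 27 Affymetrix rice arrays, read with GCOS 1.3 per the submitters' processing notes. The deposited intensity values, 1 per probe set and array, are linear and, from the values, divided by each array's 75th percentile; the sources used here give no summary algorithm and no detection call, so a low value is not called absent. The number of arrays limits the precision. Of 57258 rice probe sets, 29331 with a mean above the median of all values (0.26) were fitted as log2(value + 0.13) with 10 group means in limma 3.58.1 (lmFit, eBayes with intensity trend; R 4.3.3), two-sided, with Benjamini-Hochberg adjustment over all of them and a threshold of 0.05. The fit was also run on simulated data with independent noise and changes at 4 DAP only. Nothing is read from that run here. Folds are on that log scale and understate changes of low values. Tables and plots used Python 3.11.15, pandas 2.3.3 and matplotlib 3.10.9. Contrasts tested were 4 against 1 DAP in each part, their difference between parts, and top against bottom at each stage. Genes were named from an array annotation table and RefSeq symbols; the sources used here name no build for the array, so no positions or sequences are printed.

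Named members were the 20 highest-scoring with an informative name, the 2 highest-scoring of each role list, the 3 largest called changes per tested contrast and direction, and the 3 probe sets on each side of the lowest score. The members, lists and rule were chosen with earlier results of these data known. Alternatives were pseudocounts, filters, quantile normalization, no trend, an 18S covariate, the replicate block, subsets of groups, 1 probe set per gene and leaving out arrays.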

Additional observations from a re-analysis of the deposited data

Results flagged for a closer look

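For 3 members the change from 1 to 4 DAP differed between the parts by the limma interaction test, beside 0.338% of all tested probe sets with a higher and 0.286% with a lower change in the top part. LOC4330760 read 1.54, 1.98 and 2.12 at 1 DAP and 0.661, 1.0 and 1.26 at 4 DAP in the bottom part, but 0.381 and 0.345, then 0.951, 0.746 and 1.36 in the top part. It fell by 0.89 in the bottom part and rose by 1.19 in the top part on the log2 scale, a difference of 2.08 (SE 0.37, limma adjusted p = 0.00818). The probe set ranked 124 by score, with no gene in the annotation, read 20.7 and 15.8 at 1 DAP and 0.325, 0.17 and 0.26 at 4 DAP in the top part, and 6.52, 5.53 and 8.43, then 1.77, 1.14 and 3.37 in the bottom part. Its top change exceeded the bottom change, with a difference of -3.84 (SE 0.685, limma adjusted p = 0.00818). LOC4334447 fell by 2.17 in the bottom part, from 4.39, 8 and 5.71 to 0.943, 1.34 and 1.36, and read 0.84 and 0.906, then 0.669, 0.735 and 0.788 in the top part, a difference of 1.95 (SE 0.412, limma adjusted p = 0.0308). The number of such members was 0 without replicate 1 and 1 without replicate 2 of the top part at 1 DAP. LOC4330760 lost the call without either of these arrays (adjusted p up to 0.0654, limma), the unnamed probe set without replicate 1 alone (0.0954), and LOC4334447 under 9 of 22 alternatives (up to 0.207).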

How the results depend on the processing

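With only the groups compared in the fit, 59 members rather than 33 changed from 1 to 4 DAP in the top part, 6 rather than 3 differed between the parts in that change, and 36, 1 and 5 rather than 22, 10 and 11 differed between the parts at 1, 3 and 4 DAP. Over all probe sets, the same fits called 6133 rather than 4091 for the top change, 206 rather than 183 for the difference and 1497 rather than 1191 at 1 DAP. A pseudocount of 0.5 gave 6 at 3 DAP and 7 at 4 DAP. A filter at a mean above 1 kept 114 of the members and called 33 rather than 70 before pollination. Without the 3 bottom arrays that stand apart, 10 rather than 6 were called at 2 DAP. Leaving out 1 array at a time gave 15 to 24 called members for the bottom change from 1 to 4 DAP, 15 to 29 for the top change, and 0 to 4 for their difference. Between the parts it gave 12 to 20 at 1 DAP, lowest without top replicate 1, 2 to 21 at 3 DAP, lowest without top replicate 1 and highest without bottom replicate 1, and 5 to 9 at 4 DAP, lowest without bottom replicate 2. Over all probe sets, 1572 differed between the parts at 3 DAP, against 19 with only those groups and 2576 with 18S signal as a covariate. With only the groups compared, 1916 rather than 4391 probe sets differed before pollination, 188 rather than 436 at 2 DAP and 110 rather than 751 at 4 DAP. Membership kept 161 to 199 of the 200 without 1 array. Deviation correlations between same-numbered arrays ran from -0.63 to 0.31. With 2 or 3 arrays per group, they cannot tell whether replicate numbers pair the samples. With the replicate block 31 and 37 members changed from 1 to 4 DAP in the bottom and top parts, and 3 differed in that change. Between the parts 81, 23, 7, 10 and 12 members differed at the 5 stages. Over all probe sets, that block called 5688 rather than 4391 between the parts before pollination. It called 3243 rather than 2640 for the bottom change and 4919 rather than 4091 for the top change. A random block for same stage and number, added after seeing the data, moved no count of members by over 1. Of 42 calls of named members and of the 3 members whose change differed between the parts, none reversed and 15 were lost under at least 1 alternative: OsMADS2 (bottom change, and between the parts at 3 DAP), OsPIP2;1 (between the parts at 3 and 4 DAP), OsNramp5 (between the parts at 1, 2 and 3 DAP), OsCIPK05 (between the parts before pollination), OsHsf-19 and LOC9269366 (top change), LOC4348234 (between the parts at 3 and 4 DAP) and all 3 differences in change. The causes were not tested.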
